A study of Mus musculus with 2 samples.

Results

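Chromatin modifiers and remodelers are the proteins that write, erase and read marks on histones and DNA and that move nucleosomes. The module described here held 47 such genes, taken as a list of gene symbols and matched by symbol to the gene names in the transcript tables of both libraries. All 47 matched, among 55536 annotated genes of which 22028 were protein-coding, and all 47 were protein-coding. They fell into 8 roles: acetyl-lysine readers, histone acetyltransferases, deacetylases with their corepressors, histone methyltransferases, Polycomb repressive complex 2 (PRC2), histone demethylases, enzymes of DNA methylation and demethylation, and nucleosome remodelers.

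The RNA came from the nucleoplasm of bone marrow-derived macrophages of C57BL/6J mice, cells grown out of marrow into macrophages in culture. The cells had been exposed to Lipid A, the part of bacterial endotoxin that stimulates Toll-like receptor 4, at 100 ng/ml for 12 h, washed and kept without it for 12 h, and given 100 ng/ml again for 10 min before harvest. Total RNA depleted of ribosomal RNA was sequenced from 2 biological replicates, started from 1 µg (replicate 1) and 500 ng (replicate 2) of RNA. Both libraries belonged to this single group, so no difference between conditions could be tested here, and a two-sided exact test over 2 libraries cannot go below p = 0.5. The libraries carried the same donor identifier, and nothing in the labels said that they came from separate cultures, so the spread between them may be technical.

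Acetylation of histone tails by enzymes such as p300 opens chromatin and is read by bromodomain proteins, and deacetylases held by corepressors such as NCoR remove it. Methyltransferases of the MLL family mark enhancers and promoters of active genes, whereas PRC2 and the enzymes G9a, GLP and SETDB1 deposit repressive methylation. In macrophages these proteins are known for holding inflammatory genes silent at rest, for opening them after endotoxin, and for setting the altered response to a second exposure.

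Replicate 1 held 24444219 expected counts assigned to genes and replicate 2 held 18051097, of which the 47 regulators took 0.616% and 0.695%. The identity of the cells was checked on marker genes. All 8 macrophage markers were detected, with a summed level of 2588 and 2445 TPM (counts divided by transcript length and scaled to the same total in each library). None of the 6 markers of each of 6 other cell types (B cells, T and NK cells, dendritic cells, erythroid and megakaryocytic cells, fibroblasts, neutrophils) was detected in both libraries, and their summed levels per type ran from 0.02 to 2.05 TPM. In bulk RNA, fewer cells with a transcript and less of it per cell cannot be told apart.

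All 47 regulators were detected, which required 1 TPM or more and 10 expected counts or more in each library. Over all protein-coding genes the same rule was met by 42.9%. The 47 were chosen with earlier results of these data known, so their detection and level beside other genes are descriptions, not tests. The median regulator stood at 11.8 TPM in replicate 1 and 15.4 TPM in replicate 2 (13.6 ± 2.55, SD, n = 2), beside 7.30 and 8.56 TPM for the median detected protein-coding gene (7.93 ± 0.891). In replicate 1, 35 of the 47 lay above that gene's level, and 38 did in replicate 2. Their levels reached from 1.41 and 1.65 TPM for Hdac9 to 86.0 and 85.1 TPM for Brd2. Their order was nearly the same in both libraries (Spearman rho 0.979 across the 47 genes, a description, since both libraries share the annotation and the transcript lengths). The smallest expected counts were 171 and 163, again for Hdac9, and the largest 18294 and 14259, for Kmt2d, whose transcript is long.

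**Figure D1:**
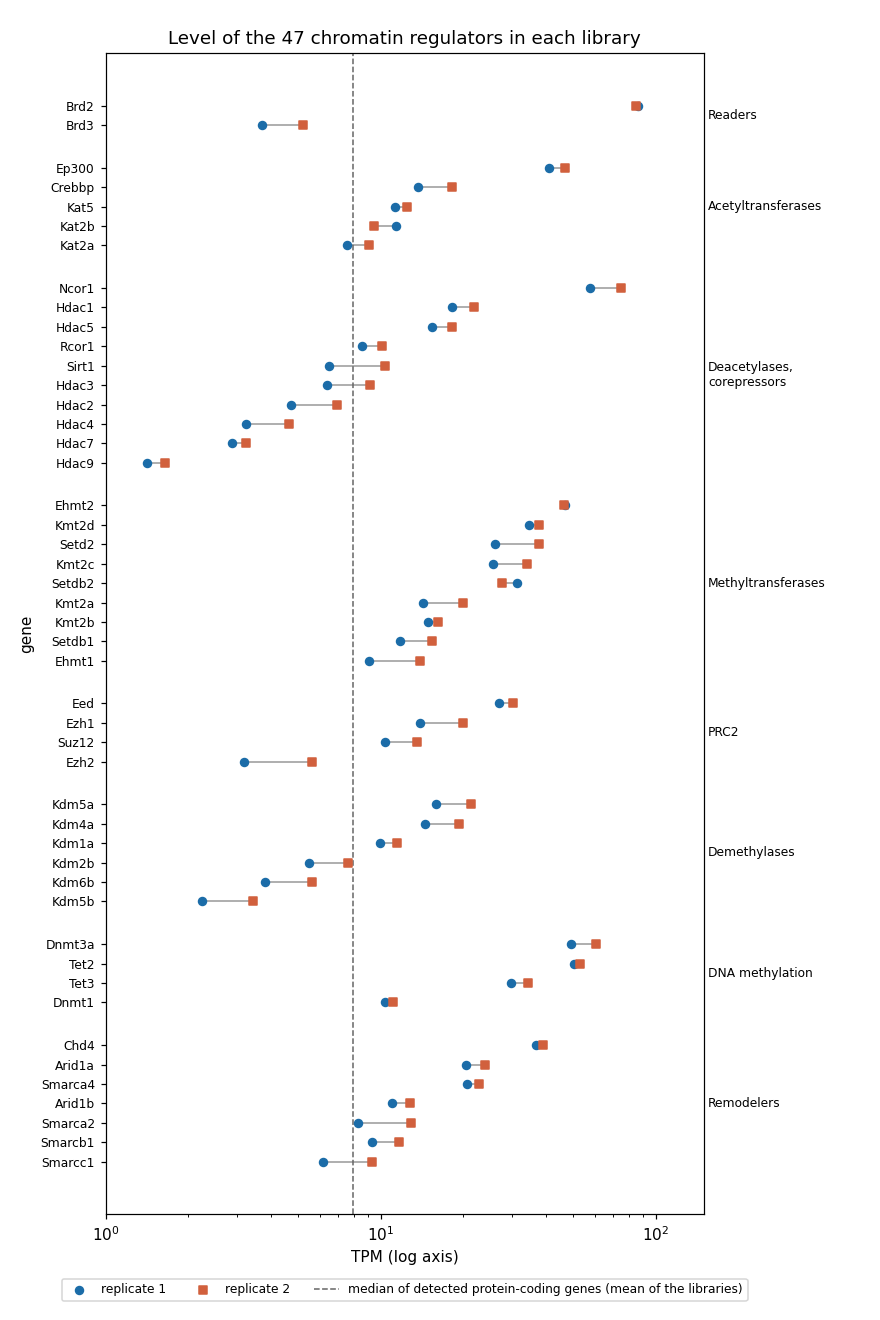
Each row is 1 of the 47 regulators, grouped by role, with its level in TPM on a log axis in replicate 1 (circle) and replicate 2 (square), and the dashed line marks the median detected protein-coding gene (7.93 TPM, mean of the libraries). Brd2, Ncor1, Dnmt3a and Tet2 lie at the right, above 49 TPM in both libraries, Hdac9, Kdm5b and Hdac7 at the left, and most squares lie to the right of their circles.

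Of the acetyl-lysine readers, Brd2 was the most abundant of all the regulators and Brd3 one of the scarcest. Brd2, a bromodomain protein of the BET family that binds acetylated histones, stood at 86.0 TPM in replicate 1 and 85.1 TPM in replicate 2 (85.6 ± 0.651). Brd3, a BET protein of the same build, stood at 3.70 and 5.21 TPM (4.46 ± 1.07). The difference between the genes far exceeded the spread between libraries, with Brd2 on average 19.5-fold above Brd3 (log2 ratio of TPM 4.28 ± 0.36). On expected counts, which are not divided by length, the log2 ratio was smaller, at 3.44 in replicate 1 and 2.99 in replicate 2. In a second transcript quantification among the deposited files, Brd2 was not as even, at 38.7 TPM in replicate 1 and 76.7 TPM in replicate 2. The log2 ratio over Brd3 was 3.59 and 3.96 there. Transcripts annotated as protein-coding held 27.9% and 32.8% of the TPM of Brd2, and 88% and 83% of that of Brd3.

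Among the histone acetyltransferases, Ep300 was well above the other 4 by TPM. Ep300 encodes p300, a coactivator that acetylates histone H3 at enhancers, and stood at 41.1 and 46.8 TPM (43.9 ± 4.04). Its paralogue Crebbp, which encodes CBP, stood at 13.6 and 18.2 TPM (15.9 ± 3.26), so that Ep300 exceeded it by a log2 ratio of 1.48 ± 0.16. On expected counts that log2 ratio was smaller, at 0.63 in replicate 1 and 0.81 in replicate 2. Transcripts annotated as protein-coding held 40.1% and 46.1% of the TPM of Ep300, and 90.4% and 85.4% of that of Crebbp. Kat5 (TIP60, the catalytic subunit of the NuA4 complex) and Kat2b (PCAF) followed, at 11.9 ± 0.870 and 10.4 ± 1.32 TPM. Kat2a, which encodes GCN5 of the SAGA and ATAC complexes, was lowest at 7.53 and 9.06 TPM. The log2 ratio of Kat2a over Kat2b was −0.33 ± 0.37, a difference smaller than its spread. In the second quantification it was larger, at −1.59 in replicate 1 and −0.86 in replicate 2.

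The deacetylases were mostly low, and the corepressor Ncor1 was high. Ncor1, the scaffold that carries HDAC3 to nuclear receptors and other repressors, stood at 57.6 TPM in replicate 1 and 74.8 TPM in replicate 2 (66.2 ± 12.2), the second highest level of the module. Rcor1, which encodes the scaffold CoREST of the LSD1 complex, stood at 9.32 ± 1.12 TPM. Of the class I deacetylases, which are the main nuclear histone deacetylases, Hdac1 was highest at 18.1 and 21.8 TPM, Hdac3 stood at 6.36 and 9.17 TPM, and Hdac2 stood at 4.73 and 6.95 TPM. Hdac1 thus lay above its paralogue Hdac2 in both libraries (log2 ratio 1.79 ± 0.20). Class IIa deacetylases, which shuttle between nucleus and cytoplasm and bind MEF2 factors, differed widely. Hdac5 stood at 16.7 ± 1.96 TPM, Hdac4 at 3.95 ± 1.00 TPM, Hdac7 at 3.06 ± 0.269 TPM and Hdac9, the lowest regulator, at 1.53 ± 0.170 TPM. Hdac4 lay below Hdac5 by a log2 ratio of −2.10 ± 0.20. Sirt1, an NAD-dependent deacetylase of histones and of NF-kB p65, stood at 6.49 and 10.4 TPM. Exons of Hdac4 shared 22.4% of their bases with Gm26720, an annotated long noncoding RNA on the opposite strand with expected counts of 0 and 44, and the strand setting of the counting is not given in the sources used here.

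Among the histone methyltransferases the 4 genes of the MLL family and 4 enzymes of histone H3 lysine 9 (Ehmt1, Ehmt2, Setdb1 and Setdb2) were all detected. Ehmt2, which encodes G9a, was highest at 46.8 and 46.3 TPM (46.5 ± 0.361). Its partner Ehmt1, which encodes GLP and forms a heterodimer with G9a, stood at 9.06 and 13.9 TPM (11.5 ± 3.45). The pair differed by a log2 ratio of −2.05 ± 0.45, Ehmt1 over Ehmt2. Setdb2 stood at 31.4 and 27.7 TPM, above its paralogue Setdb1 at 11.8 and 15.4 TPM. The log2 ratio of Setdb1 over Setdb2 was −1.13 ± 0.40, below 0 in both libraries and larger than its spread. On expected counts, which are not divided by length, it was −0.44 in replicate 1 and 0.12 in replicate 2. Setdb1 is known for silencing retroelements with KAP1, and Setdb2 as an interferon-induced enzyme of macrophages. Setd2, which trimethylates lysine 36 in the bodies of transcribed genes, stood at 26.0 and 37.8 TPM. The enhancer methyltransferases Kmt2d and Kmt2c stood at 36.2 ± 1.99 and 29.8 ± 6.02 TPM. Kmt2a and Kmt2b, which act at promoters, were lower at 17.1 ± 3.96 and 15.5 ± 0.870 TPM. No order could be given to Kmt2a and Kmt2b, since the log2 ratio was −0.06 in replicate 1 and 0.30 in replicate 2.

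The subunits of PRC2, which together trimethylate lysine 27 of histone H3, were not at 1 level. Eed, the subunit that binds the finished mark, stood at 26.9 and 30.2 TPM (28.5 ± 2.34). Suz12, the scaffold subunit, stood at 10.4 and 13.5 TPM. Of the alternative catalytic subunits, Ezh1, known as the form of resting cells, stood at 13.9 and 19.9 TPM and Ezh2, known as the form of dividing cells, at 3.19 and 5.62 TPM. Ezh1 was above Ezh2 in both libraries, by a log2 ratio of 1.97 ± 0.21. For Eed, most of the level came from short transcripts annotated as retained introns, as described with the transcript forms. On expected counts Eed (712 and 541) lay below Suz12 (1251 and 1123) and Ezh1 (1453 and 1379).

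Among the histone demethylases, Kdm5a was highest and its paralogue Kdm5b lowest. Both remove trimethylation from lysine 4 of histone H3, and they stood at 15.9 and 21.3 TPM for Kdm5a and 2.24 and 3.44 TPM for Kdm5b (log2 ratio 2.73 ± 0.14). Kdm4a, which acts on lysines 9 and 36, stood at 14.5 and 19.4 TPM. Kdm1a, which encodes the LSD1 enzyme held by CoREST, stood at 10.7 ± 1.04 TPM. Kdm2b, which brings a variant Polycomb complex to CpG islands, stood at 6.55 ± 1.53 TPM. Kdm6b, the lysine 27 demethylase JMJD3 known as an endotoxin-induced gene of macrophages, stood at 3.80 and 5.62 TPM, below the median detected protein-coding gene in both libraries.

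Of the DNA methylation genes, the de novo methyltransferase Dnmt3a and the oxidising enzymes Tet2 and Tet3 were high, and the maintenance methyltransferase Dnmt1 was lower. Dnmt3a stood at 49.4 and 60.7 TPM and Tet2 at 50.4 and 53.3 TPM (51.8 ± 2.04). Tet3 stood at 29.9 and 34.3 TPM, below Tet2 by a log2 ratio of TPM of 0.69 ± 0.09 (Tet2 over Tet3), while the counts of the pair were nearly equal (9127 and 7674 for Tet2, 9267 and 7541 for Tet3). Transcripts annotated as protein-coding held 36.3% and 41.8% of the TPM of Tet2, and 76.1% and 78.7% of that of Tet3. The order of the pair by TPM is thus that of all their transcripts together, not of the coding ones. Dnmt1, which copies methylation onto new DNA strands during replication, stood at 10.3 and 11.1 TPM. Outside the module, Dnmt3b, Dnmt3l, Tet1 and Uhrf1, the partner of Dnmt1 at replicated DNA, were below the detection rule, at 0.26 and 0.54, 0.32 and 0.56, 0.05 and 0.20, and 1.14 and 0.89 TPM.

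Of the nucleosome remodelers, Chd4, the ATPase of the NuRD complex, was highest at 36.7 and 38.8 TPM (37.7 ± 1.53). The other 6 were subunits of the SWI/SNF (BAF) complex. Its ATPases are Smarca4 (BRG1) and Smarca2 (BRM), which are alternatives in the complex. Smarca4 stood at 20.6 and 22.7 TPM and Smarca2 at 8.25 and 12.9 TPM, a log2 ratio of 1.07 ± 0.36. That order was not kept by the second quantification, in which the log2 ratio was 0.21 in replicate 1 and −0.23 in replicate 2. Of the alternative DNA-binding subunits, Arid1a stood at 22.2 ± 2.50 TPM and Arid1b at 11.9 ± 1.24 TPM (log2 ratio 0.90 ± 0.01). The core subunits Smarcb1 and Smarcc1 stood at 10.5 ± 1.67 and 7.76 ± 2.21 TPM.

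**Figure D2:**
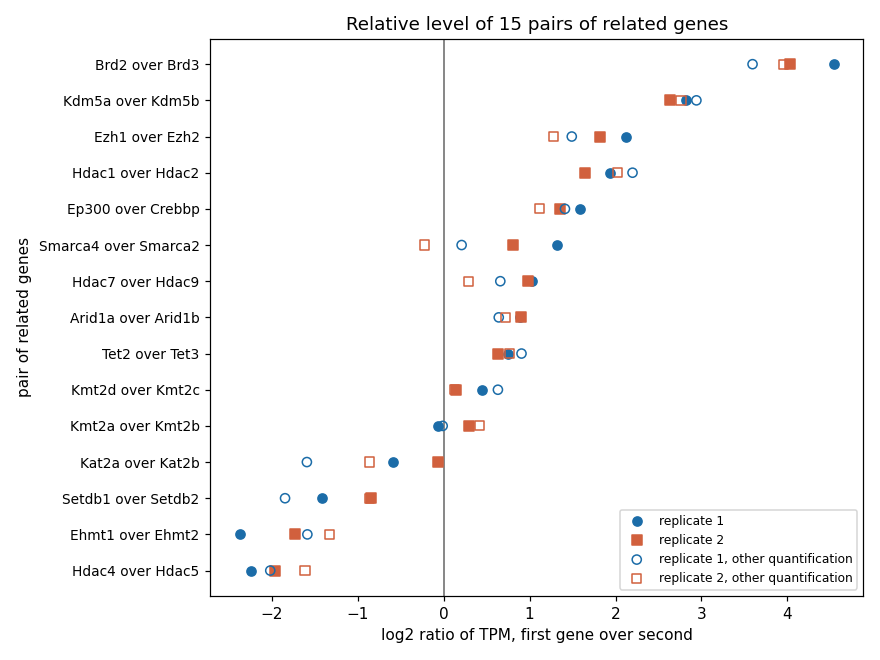
The log2 ratio of TPM of the first gene over the second is plotted for 15 pairs of related regulators, in replicate 1 (circles) and replicate 2 (squares), with open symbols for the second transcript quantification. Brd2 over Brd3 lies farthest to the right and Hdac4 over Hdac5 and Ehmt1 over Ehmt2 farthest to the left, and the symbols of Kmt2a over Kmt2b and of Smarca4 over Smarca2 lie on both sides of 0.

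Of the 15 pairs, 14 had the same order in both libraries, Kmt2a with Kmt2b being the exception, and 13 had the same order in both libraries and both quantifications. The plot of pair ratios shows these values. Hdac7 over Hdac9 and Kmt2d over Kmt2c, the pairs not yet given, had log2 ratios of 1.00 ± 0.03 and 0.29 ± 0.21. The size of the ratios depended on the division by length. On expected counts some were smaller, such as Hdac4 over Hdac5 (−0.96 in replicate 1 and −0.93 in replicate 2). Others were larger, such as Ezh1 over Ezh2 (2.78 and 2.76).

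A further 139 genes of the same complexes and families, listed as their partners or paralogues, served to place the module. Of these, 117 were detected, and their median level was 8.34 TPM in replicate 1 and 10.5 TPM in replicate 2. All 8 further acetyltransferase genes and all 23 further methyltransferase genes were detected, led by Trrap, the scaffold of NuA4 and SAGA (33.6 and 41.1 TPM), and by the lysine 36 enzymes Nsd3 (53.0 and 51.1 TPM) and Nsd1 (40.7 and 54.1 TPM). Among 16 further deacetylases and corepressors, 14 were detected, with Sirt7 (38.3 and 43.9 TPM) in front, and Hdac11 and Rcor2 were not. Of 14 further demethylases, 12 were detected, led by Jmjd1c (49.7 and 64.6 TPM) and Kdm2a (28.6 and 39.9 TPM), and Kdm4d and Kdm8 were not. Of 24 further Polycomb genes, 18 were detected, with Phc3 (14.2 and 19.0 TPM) and Aebp2 (14.1 and 17.0 TPM) in front, and Cbx2, Cbx8 and Phf19 were among the 6 that were not. Of 39 further remodeler genes, 32 were detected. The histone chaperone Daxx was highest among them (116 and 73.7 TPM), followed by its partner Atrx (54.7 and 80.6 TPM), whereas Smarca1, an ISWI ATPase, and Actl6b, a subunit of the neuronal BAF complex, had an expected count of 0 in both libraries.

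The 2 libraries were then compared for each regulator on counts. Expected counts were scaled by the trimmed mean of M-values (TMM), and the log2 ratio of replicate 2 over replicate 1 was taken. Each ratio sets 1 library against 1 library of the same group, so it has no replicate check, and its interval covers counting error only. The median over the 47 was 0.03, with 29 above 0 and 18 below. Over the 11751 protein-coding genes whose mean count reached 10 the median was 0.01, and 50.6% lay above 0. The split depended on the scaling, since by CPM (counts scaled to the library total, without TMM) 40 of 47 lay above 0 and by TPM 43 did, while the median of all protein-coding genes itself shifted to 0.17 on each of those scales. Relative to that median, 33 of 47 lay above 0 by TPM. For CPM and TPM the share of all protein-coding genes above 0 is not given here, so those counts of regulators have no such share beside them.

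No regulator differed by more than 2-fold between the libraries in either direction. Among protein-coding genes whose mean count reached 50, 0.84% were more than 2-fold higher in replicate 2 and 2.56% more than 2-fold lower. All 47 ratios lay within ±0.5, as did 81.0% of those genes, and the SD of the ratios was 0.20 for the regulators and 0.45 for the genes. The sets were not matched for count, since the lowest mean count of a regulator was 167 (Hdac9) and the genes entered from 50. Of the 139 further genes, 121 reached a mean count of 50, and 1 of these was past 2-fold, lower in replicate 2. This was Daxx, with expected counts of 7812 and 3112 and a log2 ratio of −1.05.

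**Figure D3:**
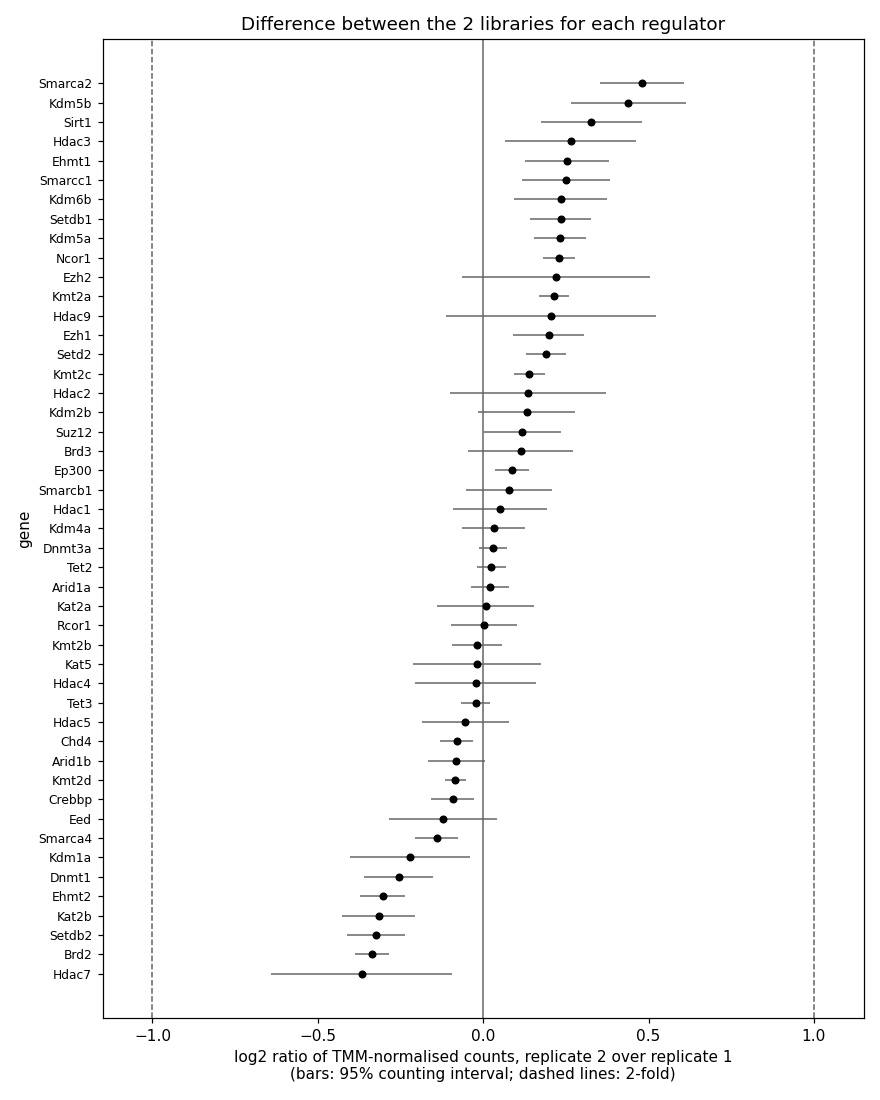
The log2 ratio of TMM-normalised counts, replicate 2 over replicate 1, is plotted for each regulator with its 95% counting interval, and dashed lines mark 2-fold. The points run from −0.37 (Hdac7) to 0.48 (Smarca2), and none reaches a dashed line.

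The regulators higher in replicate 2 were led by Smarca2, with expected counts of 944 and 1088 and a log2 ratio of 0.48 (95% counting interval 0.35 to 0.61). Kdm5b followed with 516 and 578 counts (0.44), Sirt1 with 700.0 and 726 (0.33), Hdac3 with 428 and 425 (0.26) and Ehmt1 with 1025 and 1011 (0.25). The lowest ratio was that of Hdac7, with 287 and 184 counts (−0.37, interval −0.64 to −0.09). Brd2 followed with 7545 and 4943 counts (−0.34), Setdb2 with 2627 and 1735 (−0.32), Kat2b with 1671 and 1110.0 (−0.32) and Ehmt2 with 4355 and 2917 (−0.30). By TPM, 4 regulators were lower in replicate 2, namely Brd2, Setdb2, Kat2b and Ehmt2. Hdac7 changed sides, at 2.87 and 3.25 TPM, and its effective length (the length its counts were divided by, set by its mixture of transcripts) was 2522 bases in replicate 1 and 2042 bases in replicate 2. By TPM in the second quantification, Brd2 (38.7 and 76.7), Setdb2 (16.0 and 16.3), Kat2b (8.14 and 8.23) and Ehmt2 (17.2 and 24.0) were all higher in replicate 2. Their log2 ratios of counts there stayed below 0 (−0.29, −0.40, −0.42 and −0.28).

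The ratio also moved with gene length. Over protein-coding genes in 4 equal bins of effective length, from short to long, the median log2 ratio was −0.15, 0.00, 0.04 and 0.09. Of the regulators, 25 lay in the longest bin, 12 in the next, and 7 and 3 in the shorter ones. Their median effective length was 3707 bases in replicate 1 and 3498 bases in replicate 2, beside 2231 and 2237 for detected protein-coding genes. The part of length in the ratios of single regulators was not tested.

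The annotation lists several transcripts for every regulator, and it assigns each a type. Protein-coding transcripts carry a full reading frame, retained-intron transcripts keep sequence that the coding ones splice out, and those marked for nonsense-mediated decay carry an early stop codon that exposes an mRNA to that surveillance pathway in the cytoplasm. The share of a gene's TPM on each transcript was read from the deposited isoform percentage. In nuclear RNA, a kept intron and RNA not yet spliced cannot be told apart by these shares. Over the 38 regulators that had both a coding and a retained-intron transcript, the median retained-intron share was 29.5% in replicate 1 and 31.8% in replicate 2 (30.6 ± 1.65), beside 26.4% and 27.1% (26.8 ± 0.523) over 5973 protein-coding genes of the same kind. In both libraries, 22 regulators lay above the median gene and 13 below. The order turned around when shares were taken from expected counts, with 11.7% for the regulators and 15.3% for all such genes, so neither set can be said to hold the larger share.

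The per-length scale gives weight to short transcripts. Kmt2d shows it clearly, because its full-length coding transcript of 19823 bases, Kmt2d-201, held 98.6% and 98.7% of the gene's counts but 66.7% and 68.9% of its TPM. A coding fragment of 751 bases, Kmt2d-203, held 0.965% and 0.980% of the counts and 23.9% and 25.3% of the TPM. Smarcb1 showed the reverse, since its retained-intron transcript Smarcb1-205 was the longer one (7441 bases) and held 56.5% and 56.7% of the counts but 22.2% of the TPM in each library.

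**Figure D4:**
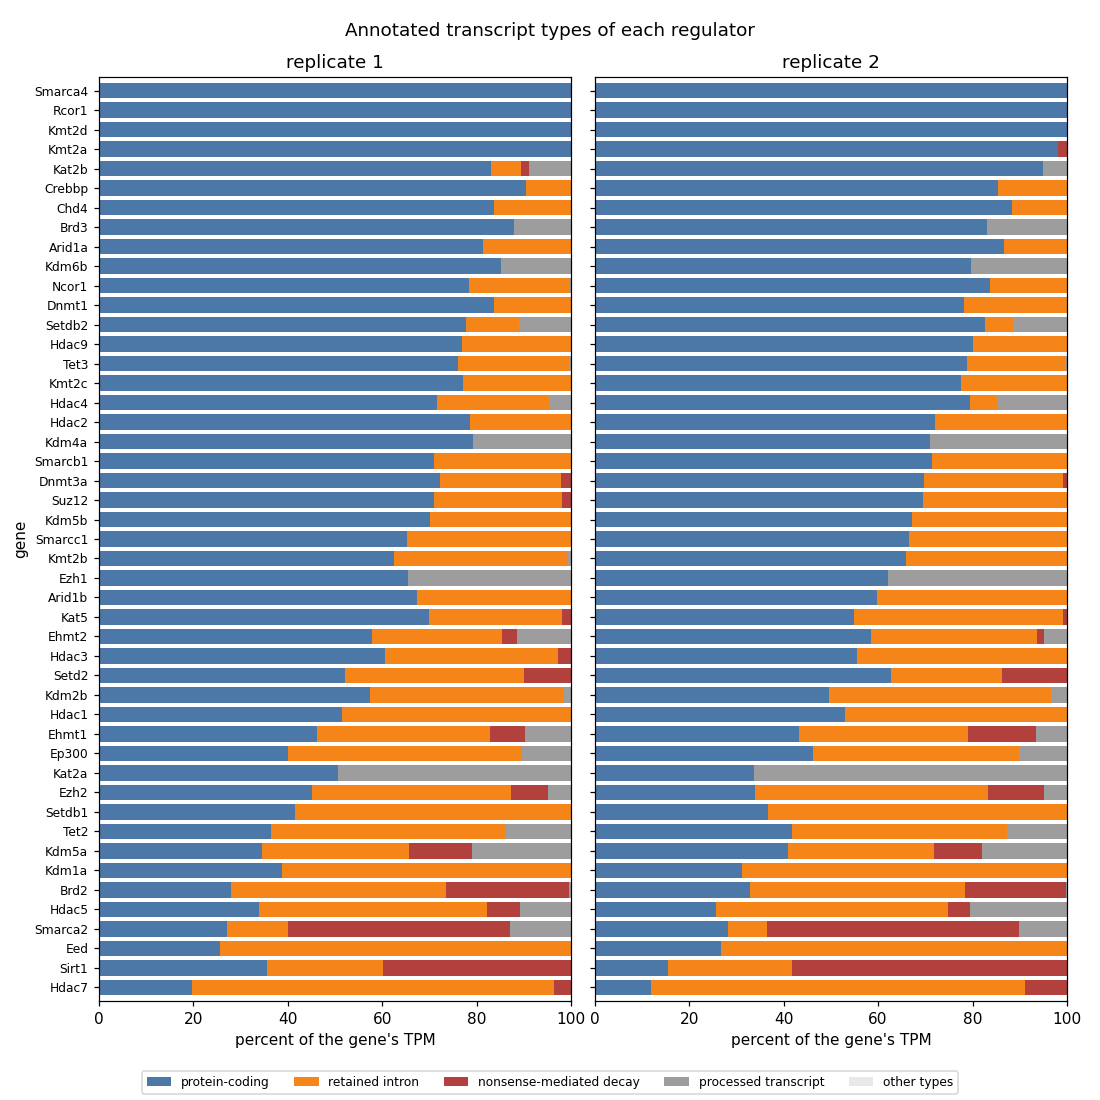
Each bar is 1 regulator in replicate 1 (left) or replicate 2 (right), divided into the percent of its TPM on transcripts annotated as protein-coding, retained intron, nonsense-mediated decay, processed transcript or other types, sorted by the mean coding share. Smarca4, Rcor1 and Kmt2d at the top are almost wholly coding, and Hdac7, Sirt1, Eed and Smarca2 at the bottom are under 36% coding in both libraries.

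The most abundant transcript by TPM was the same in both libraries for 33 of 47 regulators, where the share over 8765 detected protein-coding genes with several transcripts was 81.6%. By counts it was the same for 40 of 47, beside 87.4%. For 24 of the 33 the second quantification put the same transcript first in both libraries. No share over all genes is given for that count, so it describes the regulators only. By TPM the most abundant transcript differed between the libraries for 14: Brd2, Ehmt2, Kdm1a, Eed, Arid1b, Hdac5, Hdac4, Kat2a, Dnmt3a, Suz12, Kdm2b, Kmt2c, Ezh2 and Ncor1. In several of these the leading transcripts were close. Ncor1-211 led in replicate 1 with 11.3% and Ncor1-203 in replicate 2 with 13.6%, and Kmt2c-208 led with 28.1% in replicate 1 and Kmt2c-201 with 26.0% in replicate 2. Others shifted further, and Suz12-206 went from 39.4% to 18.6% while the similar coding transcript Suz12-201 went from 31.7% to 50.9%. For Dnmt3a, the coding transcripts Dnmt3a-201 and Dnmt3a-218 held 29.9% and 17.4% in replicate 1 and 20.3% and 25.6% in replicate 2. Hdac4-205, a coding fragment of 849 bases, led in replicate 2 with 47.3% of the TPM on 38.4 counts, 8.60% of the gene's counts. In Kdm1a the lead passed from the coding Kdm1a-202 (26.6% in replicate 1) to the retained-intron Kdm1a-204 (26.7% in replicate 2), and in Arid1b from the coding Arid1b-207 (43.0%) to the retained-intron Arid1b-205 (33.8%). The lead also passed from a coding to a retained-intron transcript in Ehmt2 (Ehmt2-204, 23.4%, to Ehmt2-205, 25.1%), Kdm2b (Kdm2b-201, 40.6%, to Kdm2b-212, 30.0%) and Ezh2 (Ezh2-202, 23.6%, to Ezh2-207, 22.2%). In Hdac5 it passed the other way, from Hdac5-218 (16.2%) to the coding Hdac5-204 (19.3%). These shares come from 1 library each.

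For 6 of 47 regulators the leading transcript by TPM was of another type than protein-coding in both libraries, where the share over all such genes was 10.8%. These were Hdac7, Setdb1, Ehmt1 and Eed, led by retained introns, and Sirt1 and Smarca2, led by transcripts marked for nonsense-mediated decay. In the second quantification the leads of Hdac7, Setdb1 and Eed were the same, Ehmt1 was led by a processed transcript in replicate 1, and neither Sirt1 nor Smarca2 was led by a decay form. By counts there were 7, beside 9.71%: Hdac7, Setdb1, Sirt1, Smarca2, Brd2, Kdm2b and Smarcb1.

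The stretches that set several of these transcripts apart follow, since the shares turn on them. They are read from the annotated transcripts in the direction of transcription, with capitals for the bases that differ from the coding transcript and lower case for neighbouring shared bases. Brd2-207 holds an extra exon of 92 bases at chr17:34116598-34116689 (mm10, minus strand), a length that is no multiple of 3, and its annotated stop codon ends 19 bases into the next exon, the last 3 bases shown. Sirt1-205 holds an extra exon of 125 bases at chr10:63326660-63326784 (minus strand), of which the first 15 bases, chr10:63326770-63326784, run to the annotated stop. Smarca2-215 lacks an exon of 106 bases at chr19:26770938-26771043 (plus strand), which lies in the coding sequence of the bromodomain, so the capitals show what the decay form skips, and its stop codon follows at chr19:26776110-26776112.
Brd2-207: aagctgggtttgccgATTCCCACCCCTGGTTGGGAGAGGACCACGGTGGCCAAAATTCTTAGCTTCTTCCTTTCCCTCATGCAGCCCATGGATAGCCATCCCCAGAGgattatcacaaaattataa
Sirt1-205: ttcaagtttgcaaagAAGAAACAGCATTGA
Smarca2-201: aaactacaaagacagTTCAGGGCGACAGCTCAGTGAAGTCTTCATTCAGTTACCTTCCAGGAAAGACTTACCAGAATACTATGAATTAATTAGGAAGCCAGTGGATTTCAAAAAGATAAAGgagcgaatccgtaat

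The Brd2 transcript with the extra exon was abundant and differed between the libraries. Brd2-207 held 3673 counts in replicate 1 and 1974 in replicate 2, which is 48.7% and 39.9% of the gene's counts and 25.0% and 19.4% of its TPM. The coding transcript Brd2-202 held 1563 and 1356 counts and 19.1% and 24.0% of the TPM, so the decay form led in replicate 1 and the coding form in replicate 2. The switch was not seen in the second quantification, where Brd2-207 held 17.6% and 9.36% of the TPM and Brd2-202 less, 11.9% and 7.96%, and a retained-intron transcript led in replicate 2 with 40.8%. Retained-intron transcripts held another 45.7% of the TPM of Brd2 in each library.

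Sirt1 was led by the form with the early stop in both libraries by the deposited isoform percentage, but not in the second quantification. Sirt1-205 held 333 counts in replicate 1 and 542 in replicate 2, or 39.8% and 58.3% of the TPM. The full coding transcript Sirt1-201 held 276 counts and 29.0% of the TPM in replicate 1 and 0.58 counts and 0.06% in replicate 2. The second quantification gave Sirt1-205 16.5% and 23.6% and Sirt1-201 3.29% and 0%, and there a retained-intron transcript led with 52.6% and 51.3%. In Smarca2, transcripts marked for decay together held 47.1% and 53.5% of the TPM. Smarca2-215, which lacks the exon above, held 179 and 220 counts (30.3% and 34.1% of the TPM), and the longer Smarca2-202 held 314 and 397 counts (16.8% and 19.4%). In the second quantification Smarca2-215 held 12.2% and 16.4%, and a processed transcript led with 24.6% and 17.1%.

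Transcripts annotated as retained introns led by TPM in 4 regulators. The bases that mark them are given for Hdac7, Setdb1 and Eed, the regulators among these with the largest retained-intron shares. They are also given for Kat2a, whose second transcript type has intronic bases too. Capitals are bases that the coding transcript splices out, and all lie between its first and last coding base. Hdac7-211 keeps 380 bases before the second to last exon, chr15:97794066-97794445 (minus strand), of which the last 60 are shown. Setdb1-204 keeps a whole intron of 1080 bases, chr3:95337266-95338345 (minus strand), of which the first and last 60 are shown. Eed-203 and Eed-207 run 101 and 135 bases into introns and end there, at chr7:89972130-89972230 and chr7:89964594-89964728 (minus strand). Kat2a-204 keeps 195 bases after an exon, chr11:100710250-100710444 (minus strand), and is annotated as a processed transcript without a reading frame.
Hdac7-211: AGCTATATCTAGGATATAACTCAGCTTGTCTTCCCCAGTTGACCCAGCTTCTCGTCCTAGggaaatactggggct
Setdb1-204 start: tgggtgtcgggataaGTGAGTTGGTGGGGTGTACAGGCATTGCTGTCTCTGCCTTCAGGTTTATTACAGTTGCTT
Setdb1-204 end: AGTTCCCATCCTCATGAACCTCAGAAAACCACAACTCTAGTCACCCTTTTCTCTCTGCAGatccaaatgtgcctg
Eed-203: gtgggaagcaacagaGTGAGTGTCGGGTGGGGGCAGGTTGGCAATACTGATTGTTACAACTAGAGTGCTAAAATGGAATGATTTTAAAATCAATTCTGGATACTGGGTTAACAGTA
Eed-207: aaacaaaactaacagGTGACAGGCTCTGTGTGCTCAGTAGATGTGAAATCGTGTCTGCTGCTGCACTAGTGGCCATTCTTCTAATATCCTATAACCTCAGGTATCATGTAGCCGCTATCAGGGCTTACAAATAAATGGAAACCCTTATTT
Kat2a-204: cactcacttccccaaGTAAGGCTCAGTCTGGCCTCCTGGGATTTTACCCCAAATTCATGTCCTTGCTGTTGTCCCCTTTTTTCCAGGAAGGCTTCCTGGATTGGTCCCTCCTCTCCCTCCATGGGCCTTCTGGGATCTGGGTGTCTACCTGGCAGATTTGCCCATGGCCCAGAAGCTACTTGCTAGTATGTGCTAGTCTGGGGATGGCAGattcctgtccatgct

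The retained stretches of Setdb1, Eed and Kat2a open with GT, the bases at the start of most introns, and those of Hdac7 and Setdb1 close with AG, the bases at the end of most introns. The capitals thus begin or end at annotated splice sites of the coding transcript.

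Hdac7 had the largest retained-intron share of its TPM, at 76.6% and 79.4%, and also by counts, at 67.3% and 69.6%. Hdac7-211 alone held 58.4% and 69.7% of the TPM, on 90.0 and 84.9 counts. Eed followed with 74.4% and 73.2% of the TPM but 40.8% and 45.0% of the counts. Eed-203, of 491 bases, led in replicate 1 (23.3%) and Eed-207, of 703 bases, in replicate 2 (20.7%), while the coding Eed-201 held 54.3% and 45.9% of the counts and 19.6% and 16.0% of the TPM. The next were Kdm1a, with 61.3% and 68.9% of the TPM, and Setdb1, with 58.4% and 63.3%. In Setdb1 the share hardly depended on the scale, being 55.6% and 63.2% by counts, and the transcript with the whole intron, Setdb1-204, held 996 and 1137 counts against 806 and 519.7 for the coding Setdb1-202. Hdac5 came next with 48.2% and 49.0% of the TPM and 27.9% and 29.9% of the counts. The lowest share among the 38 was that of Kat2b, with 6.42% and 0% of the TPM. For the other 9 regulators, Smarca4, Rcor1 and Kmt2d among them, the annotation lists no retained-intron transcript, so no share could be found.

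**Figure D5:**
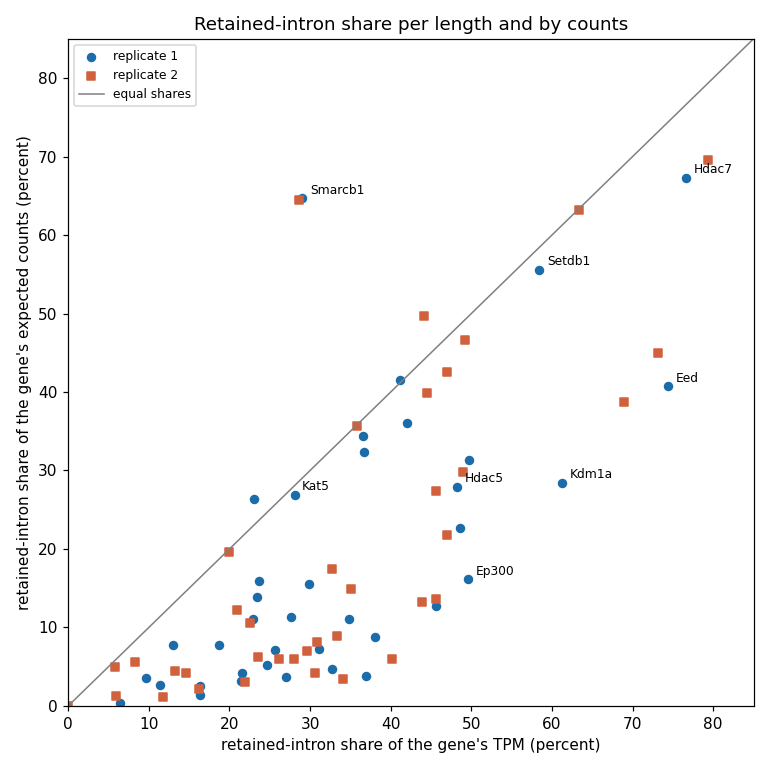
The retained-intron share of each of the 38 regulators with such a transcript is plotted as percent of the gene's TPM (horizontal axis) against percent of its expected counts (vertical axis), for replicate 1 (circles) and replicate 2 (squares), with a line at equal shares. Most points lie below the line, Hdac7 and Setdb1 lie near it at the upper right, and Smarcb1 lies far above it.

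In Kat2a the coding transcript and the one with intronic bases changed places. Kat2a-201 held 352 counts in replicate 1 and 185 in replicate 2 (41.7% and 26.1% of the TPM), and Kat2a-204 held 306 and 395 counts (37.5% and 57.7%). The second quantification gave the same order in each library, with 41.6% and 23.0% for Kat2a-201 and 36.5% and 51.7% for Kat2a-204. The gene as a whole was almost level between the libraries, with 842 and 700.0 counts and a log2 ratio of 0.01.

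Promoter sequences of 300 bases, 250 before and 50 after a transcription start, were matched by symbol in RefSeq (GRCm38.p6, the assembly of mm10) for 42 of the 47 regulators, 61 promoters in all. Hdac1, Hdac3, Kdm5a, Kdm6b and Kmt2b had none in the table. The regulators' promoters were rich in CpG, with a median ratio of observed to expected CpG of 0.875, beside 0.588 over 20150 promoters of protein-coding genes. At least 0.6 was reached by 82.0% of theirs and 49.1% of all. The median GC content was 66.3% for theirs and 57% for all. On either strand, the GC box GGGCGG was in 67.2% of their promoters and 47.8% of all. The core of the NRF1 site, GCGCANGCG, was in 19.7% and 8.90%, and its holders were Brd2, Dnmt1, Ehmt1, Ehmt2, Ezh1, Ezh2, Kat2a, Kdm1a, Smarca4, Smarcb1 and Smarcc1. The ETS site CCGGAAG was in 9.84% and 11.9%, and the YY1 site AAGATGGCG in 3.28% and 1.93%. Of the sites tied to endotoxin and interferon responses, the NF-kB form GGGANTTCC was in 1.64% and 1.85% (Chd4 alone). Other forms of the NF-kB site were not searched. The interferon-response core GAAANNGAA was in 4.92% and 8.21% (Eed, Hdac9 and Kat5). The TATA box TATAAA was in 1.64% and 12.1%, and Hdac9 was its sole holder. These searches do not exclude overlap between motifs, and a match describes letters, not a bound site. The promoters of all genes were neither matched for GC content nor limited to detected genes. The part of base composition in the motif shares was not tested.

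The 250 bases before a start are shown for the regulators of the highest and the lowest level. Of the 3 promoters listed for Brd2 and the 2 for Hdac9, the one with the motif named was chosen, and neither lies at the start of the gene's leading transcripts. In this Brd2 promoter, chr17:34122608-34122857 (GRCm38.p6, minus strand), capitals mark an ETS site and, near the start, 2 overlapping NRF1 cores on opposite strands. In this Hdac9 promoter, chr12:34917096-34917345 (minus strand), capitals mark the TATA box, whose first base lies 29 bases before the start, and the 300-base window of this promoter held no CpG.
Brd2 promoter: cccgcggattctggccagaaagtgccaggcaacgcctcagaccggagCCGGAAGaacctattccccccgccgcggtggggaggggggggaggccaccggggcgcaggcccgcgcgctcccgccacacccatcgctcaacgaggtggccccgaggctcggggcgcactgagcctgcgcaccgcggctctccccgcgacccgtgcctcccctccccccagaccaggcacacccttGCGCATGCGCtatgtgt
Hdac9 promoter: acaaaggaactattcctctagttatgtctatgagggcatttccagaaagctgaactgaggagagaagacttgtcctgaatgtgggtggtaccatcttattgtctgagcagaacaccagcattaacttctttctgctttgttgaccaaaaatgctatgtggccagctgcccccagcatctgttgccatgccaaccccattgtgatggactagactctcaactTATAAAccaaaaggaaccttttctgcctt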

How the data were processed

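The authors' deposited tables held, for each library, expected counts and TPM per gene, an isoform percent per transcript (the percent of a gene's TPM on that transcript), and a second transcript quantification with estimated counts and TPM, all on GENCODE M21 gene models of mm10, per the file headers and the labels' protocols. For the quantifiers, the aligner, their versions and the strand setting: not given in the sources used here.

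The 47 members, the roles, the 15 pairs, the 139 further genes and the markers were chosen with earlier results of these data known. Every member may be named; values per library went to the 2 highest and the lowest of each role, the 5 highest and 5 lowest ratios, the 5 highest retained-intron shares and members whose leading transcript differed. Other values were added where they complete a pair or a role, and some further genes are not reported here.

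Expected counts were rounded, scaled by TMM (edgeR 4.0.16, R 4.3.3; factors 0.945 and 1.06), and 0.5 was added before the log2 ratio. Ratios used a mean count of at least 10, and the 2-fold count a mean of at least 50. The 95% intervals are exact conditional binomial intervals and cover counting error only. The ratio code was tested on simulated data. Levels are mean ± SD of TPM over 2 libraries. The second quantification was summed by gene. DESeq2 1.42.0 size factors, other scalings, filters and thresholds were tried as alternatives. The posterior SD of a member's expected count was at most 1.17% of it in replicate 1 and 2.17% in replicate 2.

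Of the members, 26 share exon bases with another annotated gene, 2 of them (Hdac4 and Kat5) over 10% of their own. The same count was not made over all genes.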

Additional observations from a re-analysis of the deposited data

How the results depend on the processing

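No paired analysis was possible because both libraries belong to 1 group. Leaving out a library leaves no ratio between libraries. For levels and shares it gives a value within the spread between libraries by construction, so it is no check of them. The summary values of detection, level, ratio and transcript forms stayed within the spread between libraries, or within 1.5 times for counts, under 30 alternatives. For leading transcripts this covers their count only, since the transcript was the same in both libraries and both quantifications for 24 regulators. Not all of the 30 are a check. They include the values with a library left out. They also include the median level over detected regulators only and the median ratio at a mean count of at least 50. Neither setting excluded a regulator, so those values could not change. The 7 alternatives under which a summary value moved further follow, and the cause was not tested. The second quantification gave a median regulator level of 9.20 TPM and a median retained-intron share of 37.3%, and shares of expected counts gave 11.7%. The median log2 ratio between libraries was 0.19 by CPM without TMM, 0.29 by TPM with a pseudocount of 1 and 0.30 with 0.1, where the median of protein-coding genes shifted by 0.17, 0.17 and 0.23. Relative to that median it was 0.12 with a pseudocount of 1, an alternative chosen after seeing the data. No regulator was past 2-fold under any of the 6 alternatives run for that count. The number of regulators above 0 was 29 with DESeq2 size factors, 27 without a filter and 25 in the second quantification.

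Over the single genes and pairs, each under each of its alternatives, 198 values stayed within 1 SD or their counting interval. Another 89 moved further without a change of direction, and 4 turned direction. Values with a library left out could not move further except to turn direction, since each of 2 libraries lies within 1 SD of their mean. The values with a library left out make up most of the 198 and are no check of the results. The filter at a mean count of 50 excluded no regulator, so its values could not change either. The log2 ratio of Kmt2a over Kmt2b was −0.064 without replicate 2. That of Smarca4 over Smarca2 was −0.0079 in the second quantification, as a mean of the libraries. The ratio of Hdac7 between libraries was 0.14 by TPM with a pseudocount of 1 and 0.17 with 0.1. Depth limits the scarcest regulators most, since Hdac9 rests on 171 and 163 counts and its transcript shares on fewer. With 2 libraries the SD itself is loosely known.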
